A study of Mus musculus with 8 samples.

Results

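Serpins are a family of proteins that share one fold, and most of them block proteases. An inhibitory serpin offers an exposed stretch, the reactive centre loop, as bait, and the protease that cuts it is trapped in a dead complex. Hepatocytes secrete much of the serpin content of blood plasma, among it inhibitors of neutrophil elastase, of clotting factors, of plasmin and of the first complement component, and also members that carry hormones and block no protease. The family is divided into clades by letter: clade A holds most secreted liver members, clade B the members that stay inside cells, and clades C to I hold a few genes each. The members described here are the 61 protein-coding genes whose GRCm38 symbol starts with Serpin, of 55450 genes in the files. Another 7 genes with such a symbol are not protein-coding and were left out. Clade A has 24 of the members, clade B 26, clade E 3, clades F and I 2 each, and clades C, D, G and H 1 each.

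RNA was sequenced from primary hepatocytes of C57BL/6 mice at postnatal week 8, male by the study's methods, cultured in serum-free DMEM/F-12 medium with 10 µM dexamethasone. LSKO cells came from Alb-cre(+/+);Slc39a8(F/F) mice, in which a Cre recombinase under the albumin promoter removes the floxed Slc39a8 gene in hepatocytes, and WT cells came from Slc39a8(F/F) mice, which carry the floxed gene too. LSKO cells were given sodium selenite, manganese chloride, ferrous chloride or zinc chloride at 2 µM (1 library each), for 24 h by the labels and overnight by the series design, beside 2 libraries of untreated LSKO cells and 2 of untreated WT cells. The study set out to find what these metals and the loss of the transporter ZIP8, the product of Slc39a8, do to liver transcripts. Nothing says that the 2 libraries of a pair stem from different animals, and p-values therefore measure the spread between these libraries only, which may be technical. None of the 8 libraries came from WT cells given a metal.

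Slc39a8 had 1.48 with selenite, 3.18 with manganese, 2.34 with iron and 1.83 with zinc, 8.15 and 1.88 in untreated LSKO cells, and 12.7 and 15.5 in WT cells, in normalized CPM. CPM are counts scaled to the number of reads in genes, here after TMM normalization (a trimmed mean of log ratios), and they are the level used throughout. One untreated LSKO library thus kept a level of the targeted gene closer to WT cells than the other LSKO libraries. Reads in genes numbered 19943899 to 27731054 per library. With manganese 72.2% of reads fell in genes and 4.48% in no gene, against 39.3% to 42.1% and 42.3% to 45.6% in the other libraries. Reads dropped for low alignment quality numbered 62 with manganese and 0 in both untreated LSKO libraries, against 592678 to 680199 in the selenite, iron, zinc and WT libraries. The read processing of untreated LSKO cells and that of the other groups therefore cannot be told apart from the group in 5 comparisons, and 2 comparisons lie within the 5 libraries whose read summaries are alike: the mean of iron, selenite and zinc against WT cells, and selenite against the mean of iron and zinc.

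Mouse carries several near-identical copies of the alpha-1-antitrypsin gene, Serpina1, and of the antichymotrypsin gene, Serpina3, side by side on chromosome 12, where human has 1 of each. The coding sequences of Serpina1a to Serpina1e were 96.3% to 98.5% identical over 1239 aligned bases, by alignment of GENCODE M21 transcripts (GRCm38). The coding bases of their reactive centre loop are shown because this stretch is the bait that a protease meets, and because reads can be assigned to 1 copy only where the bases differ. They run 5′ to 3′ from the hinge of the loop, and capitals mark the 18 of 87 positions at which the 5 copies do not all have the same base.
Serpina1a: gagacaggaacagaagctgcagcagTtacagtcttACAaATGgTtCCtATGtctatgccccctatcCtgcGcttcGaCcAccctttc
Serpina1b: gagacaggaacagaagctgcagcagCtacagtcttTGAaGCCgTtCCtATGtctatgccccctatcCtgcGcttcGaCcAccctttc
Serpina1c: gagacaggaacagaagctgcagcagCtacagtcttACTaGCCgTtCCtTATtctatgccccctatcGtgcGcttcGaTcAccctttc
Serpina1d: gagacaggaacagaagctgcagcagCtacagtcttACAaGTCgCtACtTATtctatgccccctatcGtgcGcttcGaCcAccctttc
Serpina1e: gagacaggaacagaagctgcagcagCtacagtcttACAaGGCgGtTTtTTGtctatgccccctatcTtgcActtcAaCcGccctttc

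Of the Serpina3 copies with high levels, Serpina3k and Serpina3m were 91.7% identical, Serpina3m and Serpina3n 85.2%, and Serpina3k and Serpina3n 82.9%. Their loop stretches are shown to set this family beside the first, with capitals at the 42 of 96 aligned positions where the 3 genes do not all have the same base.
Serpina3k: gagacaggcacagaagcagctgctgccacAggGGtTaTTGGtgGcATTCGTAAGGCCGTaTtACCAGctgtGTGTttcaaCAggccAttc
Serpina3m: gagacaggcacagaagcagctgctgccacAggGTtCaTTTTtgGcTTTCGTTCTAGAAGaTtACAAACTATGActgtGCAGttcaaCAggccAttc
Serpina3n: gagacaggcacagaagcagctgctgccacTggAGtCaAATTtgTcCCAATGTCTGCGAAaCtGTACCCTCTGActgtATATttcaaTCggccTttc

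How far reads can be told apart was read from transcript windows of 100 bases, matched on either strand. Windows with no exact copy in a transcript of another gene made up 85.2% of Serpina1e, 79.4% of Serpina1b, 70.7% of Serpina1d, 50.1% of Serpina1a and 30.7% of Serpina1c. For the Serpina3 genes that passed the count filter the share was 93.9% to 100%. Values of single Serpina1 copies are therefore uncertain, and Serpina1c and Serpina1a most of all. The same holds for Serpinb9f (47.7%) and Serpinb9g (61.5%), whose coding sequences were 98.7% identical. Windows in exons that overlap another gene at the same place count as shared too. That applies to Serpinc1 (41.6%, shared with Zbtb37 on the opposite strand) and Serpina11 (57.6%, shared with Gm28577). It applies in part to Serpina1c, through B430119L08Rik on the opposite strand. Such windows do not measure how alike copies are. Serpina3k and Serpina3m are annotated with overlapping exons on the same strand.

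Of the 61 members, 33 had at least 80 reads summed over the 8 libraries and were tested: 16 of clade A, 9 of clade B, 2 each of clades E and F, and 1 each of clades C, D, G and H. The filter used the sum over libraries, so a member low in most libraries could pass through 1 of them. Comparisons were made by edgeR's quasi-likelihood test, fitted to all 15468 genes that passed. Spread was taken from the LSKO and WT pairs and assumed for the metal groups, which have 1 library each. A call needed an adjusted p under 0.05 (Benjamini-Hochberg) and a log2 fold change above 0.5 or below -0.5. At least 1 of the 7 comparisons called 27 of the 33, and 45.9% of all genes tested. Shares of all genes are from this fit. Counts from other fits, such as DESeq2 or a replicate left out, are given for members only. Fewer or more calls there may thus hold for all genes alike.

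In untreated LSKO cells 14 members were higher than in WT cells, 0 were lower and 19 were not called, and their median log2 fold change was 0.55. Over all genes tested 10.4% were called, 6.74% higher and 3.7% lower, with a median of 0.0028. At an unadjusted p under 0.05, edgeR put 18 members higher and 2 lower, and DESeq2 called 14 higher and 0 lower. Both LSKO libraries lay above both WT libraries in 23 members and below them in 3, beside 31.8% and 29% of all genes tested. Leaving out WT replicate 1 gave 7 calls and leaving out WT replicate 2 gave 8. Of 10 hepatocyte markers, 8 were higher too, with a median log2 fold change of 1.19, and their part in the result was not tested. In bulk samples such as these, fewer cells of a type and less RNA per cell cannot be told apart.

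The mean of the iron, selenite and zinc libraries was higher than WT cells in 20 members, lower in 3 and not called in 10, with a median log2 fold change of 0.74. In this comparison, also where single members are described below, the metals and the loss of Slc39a8 differ together. Their parts cannot be told apart in it. Over all genes tested 7.12% were called higher and 6.93% lower, with a median of 0.0034. The 3 lower members were Serpinh1, Serpinb8 and Serpina3g. Each of the 3 metal libraries lay above both WT libraries in 21 members and below both in 4, beside 18.4% and 15.7% of all genes tested.

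With selenite 13 members were higher than in untreated LSKO cells, 0 were lower and 20 were not called, with a median log2 fold change of 0.58. Over all genes tested 7.89% were called higher and 9.67% lower with selenite, with a median of -0.013. Manganese called 6 higher and 2 lower (median 0.38), beside 2.09% and 15.1% of all genes (median -0.023). Iron called 2 higher and 6 lower (median -0.14), beside 8.7% of all genes, 3.8% higher and 4.89% lower (median -0.0034). Zinc called 2 higher and 0 lower (median 0.07), beside 2.9% and 1.55% of all genes (median -0.010). With selenite and with zinc, edgeR put 0 and 1 members lower at an unadjusted p under 0.05, and DESeq2 called 0 lower in both. The 4 comparisons share the untreated LSKO pair as their control. Without LSKO replicate 1, the library with more Slc39a8, selenite called 8 members and manganese 5, and zinc called 4. Without LSKO replicate 2, manganese called 14 and zinc 6, and without either WT library zinc called 0.

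Selenite was also set against the mean of the iron and zinc libraries, a comparison that does not use the untreated cells except for their spread. It called 20 members higher, 0 lower and 13 not called, with a median log2 fold change of 0.60, beside 7.53% higher and 8.35% lower of all genes (median 0.017). At an unadjusted p under 0.05 edgeR put 23 higher and 0 lower, and DESeq2 called 10 higher and 0 lower. The 6 members called lower with iron against untreated LSKO cells were among the 20. Serpina3g, at 1.08, was 1 of them: it had 2.77 with selenite, below both untreated LSKO libraries, and 0.997 with iron. A call here can thus come from a low iron value as well as from a high selenite value. The length and GC correction (offsets by length and base composition of the longest transcript of a gene) left 11 members called. Hepatocyte markers were higher in 6 of 10 in this comparison, with a median of 0.55, and Kupffer cell, endothelial and stellate cell markers had 3 higher and 0 lower each. Their part in the result was not tested.

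**Figure D1:**
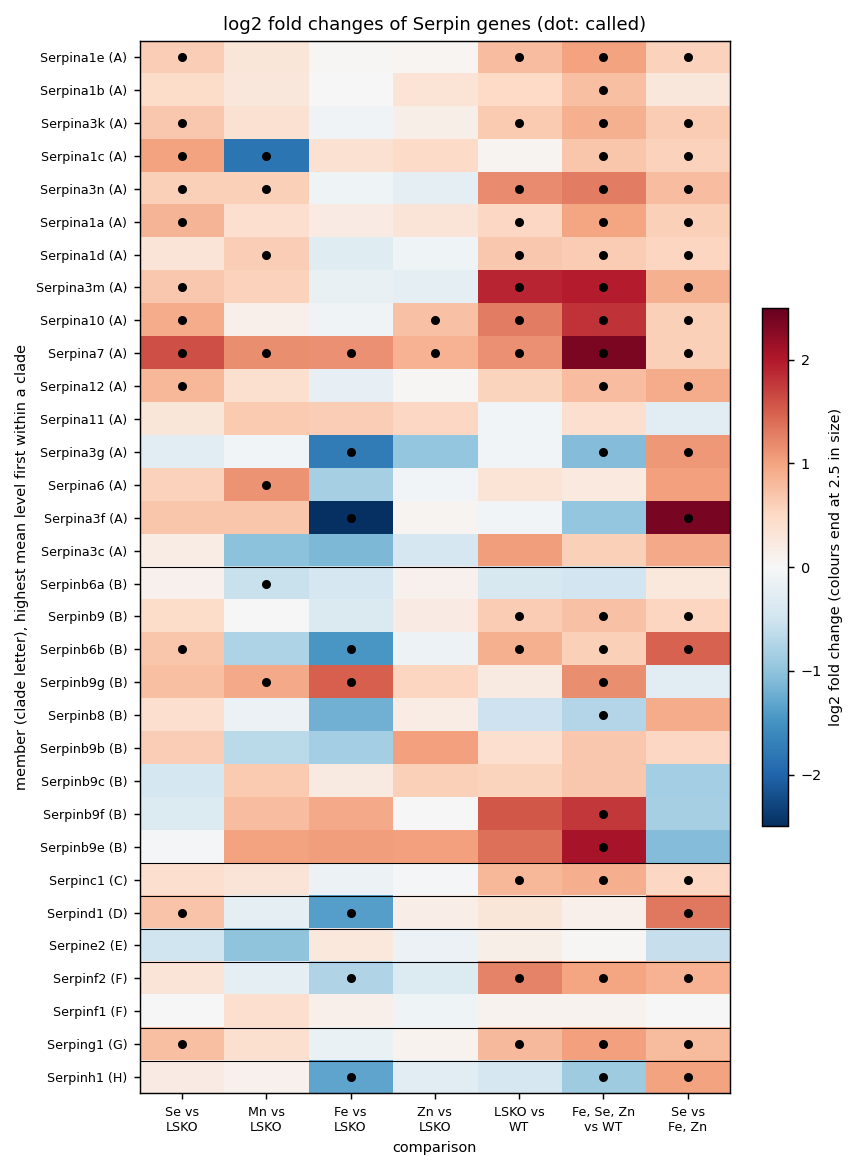
log2 fold changes of the tested Serpin genes that are reported here (rows, by clade) in the 7 comparisons (columns), red for higher and blue for lower, with a dot where the gene was called. The zinc column has 2 dots, and blue with dots is most frequent in the iron column, with 6.

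Human alpha-1-antitrypsin is the main plasma inhibitor of neutrophil elastase. The mouse Serpina1 copies differ in their loop bases, and which proteases each of them blocks was not tested here. Serpina1e (chromosome 12, 103946931 to 103958975, minus strand) had 4996 with selenite, 4042 with manganese, 3328 with iron and 3367 with zinc, 2778 and 3743 in untreated LSKO cells, and 1985 and 1837 in WT cells. Each LSKO library, treated or not, lay above both WT libraries, and selenite was highest. The mean of iron, selenite and zinc exceeded WT cells by a log2 fold change of 1.00 (standard error 0.115, edgeR adjusted p = 0.000219). Per kb of exon, Serpina1e was the highest member, with 1136 to 3090 normalized CPM per kb over the 8 libraries, followed by Serpina1b with 431 to 855.

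Serpina1b (chromosome 12, 103728156 to 103830373, minus strand) had 2065 with selenite, 1832 with manganese, 1506 with iron and 1896 with zinc, 1349 and 1656 in untreated LSKO cells, and 1097 and 1041 in WT cells, and its log2 fold change for the mean of iron, selenite and zinc against WT cells was 0.76 (standard error 0.092, edgeR adjusted p = 0.000311). Serpina1a (chromosome 12, 103853589 to 103863562, minus strand) had 711 with selenite, 524 with manganese, 453 with iron and 492 with zinc, 347 and 438 in untreated LSKO cells, and 289 and 260.2 in WT cells. Its WT libraries were the lowest and selenite the highest, with 0.98 (standard error 0.101, edgeR adjusted p = 0.000119) for the same comparison and 0.86 (edgeR adjusted p = 0.00123) for selenite against untreated LSKO cells. Serpina1d (chromosome 12, 103763594 to 103773592, minus strand) had 459.9 with selenite, 560.4 with manganese, 298 with iron and 339 with zinc, 353.9 and 379.6 in untreated LSKO cells, and 239 and 223 in WT cells. Here manganese and not selenite was highest, with 0.61 (edgeR adjusted p = 0.000502) against untreated LSKO cells, and the mean of iron, selenite and zinc differed from WT cells by 0.64 (standard error 0.072, edgeR adjusted p = 0.000205). That last call was lost with the length and GC correction. The selenite call of Serpina1e, 0.62 (edgeR adjusted p = 0.0122), was lost in DESeq2, with that correction and without LSKO replicate 1 or either WT library.

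Serpina1c (chromosome 12, 103894926 to 103904887, minus strand) had 1058 with selenite, 149 with manganese, 688 with iron and 739 with zinc, 449 and 609 in untreated LSKO cells, and 521 and 485 in WT cells. The manganese library was the lowest, below both pairs, whereas selenite, iron and zinc lay above all 4 untreated libraries. The log2 fold change for manganese against untreated LSKO cells was -1.83 (standard error 0.164, edgeR adjusted p = 7.22e-06), the smallest p of this gene. Exons of B430119L08Rik on the opposite strand cover 31.5% of the exon bases of Serpina1c. Reads of B430119L08Rik numbered 18501 with selenite, 2 with manganese, 11474 with iron and 14510 with zinc, 7744 and 15181 in untreated LSKO cells, and 11875 and 8413 in WT cells. Both genes were thus at their lowest in the manganese library, the one with 4.48% of reads in no gene. The strand setting is not given in the sources used here, and the part of the counting in the Serpina1c values was not tested. Among the 29 tested members with no exon on the opposite strand, manganese called 6 higher and 0 lower. Of the 12442 protein-coding genes tested, with or without such an exon, 296 were higher and 990 lower with manganese. No share was taken over all genes that lack such an exon, so the counts for the 29 members have no matching background.

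Summed over the 5 copies, the level was 9291 with selenite, 7108 with manganese, 6273 with iron and 6834 with zinc. It was 5277 and 6825 in untreated LSKO cells, and 4131 and 3846 in WT cells. Reads that aligned to more than 1 place, 5.46% to 9.36% per library, were assigned to no gene, so the sum does not recover them. The LSKO libraries with and without metals did not overlap with WT cells, and the 2 untreated LSKO libraries spanned a range that held the iron library and ended just below zinc. Serpina1e made up 47.8% to 56.9% of the summed reads, Serpina1b 22.2% to 27.75%, Serpina1a 6.41% to 7.65% and Serpina1d 4.75% to 7.88%. The share of Serpina1c was 11.4% with selenite, 2.101% with manganese, 10.97% with iron and 10.8% with zinc, 8.52% and 8.92% in untreated LSKO cells, and 12.6% in both WT libraries. Serpina1e had the largest share in each library and Serpina1b the next. These 2 copies also had the most windows with no exact copy in another gene, so the shares are uncertain as well.

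**Figure D2:**
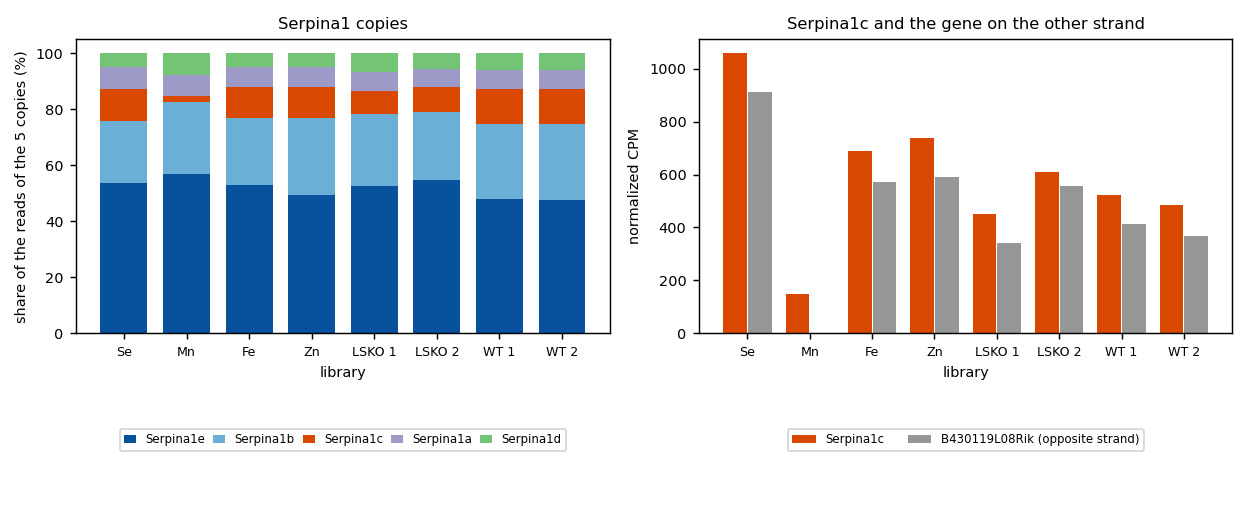
Left, share in percent of the reads of the 5 Serpina1 copies held by each copy, by library. Right, normalized CPM of Serpina1c and of B430119L08Rik, which lies on the opposite strand, by library: both are lowest with manganese, at 149 and 0.0847.

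The Serpina3 genes encode relatives of antichymotrypsin, and several are acute phase genes of mouse liver. Serpina3k (chromosome 12, 104338486 to 104346144, plus strand) had 1204 with selenite, 987 with manganese, 711 with iron and 836 with zinc, 673 and 845 in untreated LSKO cells, and 506 and 464 in WT cells. WT cells were lowest and selenite highest, with 0.88 (standard error 0.0984, edgeR adjusted p = 0.000183) for the mean of iron, selenite and zinc against WT cells and 0.67 (edgeR adjusted p = 0.00407) for selenite against untreated LSKO cells. Serpina3n (chromosome 12, 104406729 to 104414329, plus strand), an inhibitor of granzyme B and cathepsin G in mouse, had 873 with selenite, 866 with manganese, 534 with iron and 493 with zinc, 480.4 and 671 in untreated LSKO cells, and 269.6 and 238 in WT cells. Its log2 fold change was 1.27 (standard error 0.127, edgeR adjusted p = 0.000103) for the mean of the 3 metals against WT cells, and 1.18 (edgeR adjusted p = 0.000218) for untreated LSKO against WT cells. Serpina3m (chromosome 12, 104338486 to 104394257, plus strand) had 192 with selenite, 179.5 with manganese, 105 with iron and 101 with zinc, 91.2 and 149 in untreated LSKO cells, and 32.9 and 31.8 in WT cells. The 2 WT libraries lay close together and every LSKO library was at least 91.2, which made Serpina3m the member with the largest called log2 fold change between untreated LSKO and WT cells, 1.90 (edgeR adjusted p = 7.09e-05). The mean of the 3 metals against WT cells gave 1.97 (standard error 0.172, edgeR adjusted p = 4.99e-05) for Serpina3m. Its selenite call against untreated LSKO cells, 0.67 (edgeR adjusted p = 0.0339), was lost in DESeq2, with the length and GC correction and without LSKO replicate 1 or either WT library.

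The low Serpina3 genes had another pattern. Serpina3g had 2.77 with selenite, 3.22 with manganese, 0.997 with iron and 1.71 with zinc, 3.35 and 3.38 in untreated LSKO cells, and 3.19 and 3.93 in WT cells. Iron was the lowest library, with -1.75 (standard error 0.366, edgeR adjusted p = 0.0124) against untreated LSKO cells, a call lost in DESeq2. Serpina3f had 1.83 with selenite, 1.82 with manganese, 0.0997 with iron and 1.18 with zinc, 0.749 and 1.47 in untreated LSKO cells, and 1.35 and 1.00 in WT cells. The iron value rests on 2 reads, against 17 and 40 in the untreated LSKO libraries, a ratio of 0.0873 with a 95% exact counting interval of 0.0103 to 0.330 that covers counting error only. The edgeR fit gave -3.43 (standard error 0.872, edgeR adjusted p = 0.0292). This call was lost in DESeq2 and without LSKO replicate 2 or either WT library. Serpina3c had 0.988 with selenite, 0.424 with manganese, 0.399 with iron and 0.652 with zinc, 0.617 and 1.10 in untreated LSKO cells, and 0.521 and 0.305 in WT cells. The metal libraries overlapped with both pairs, no comparison called Serpina3c, and its smallest p was that of untreated LSKO against WT cells, 1.04 (standard error 0.512, edgeR adjusted p = 0.212).

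Serpina7 (chromosome X, 139079257 to 139085236, minus strand) encodes thyroxine-binding globulin, a hormone carrier that inhibits no protease. It had 73.8 with selenite, 54.4 with manganese, 53.2 with iron and 44.3 with zinc, 19.6 and 28.7 in untreated LSKO cells, and 10.1 and 11.8 in WT cells. The 4 metal libraries lay above both untreated LSKO libraries, and those lay above both WT libraries. Serpina7 was called higher in each of the 7 comparisons, with 2.36 (standard error 0.156, edgeR adjusted p = 2.16e-05) for the mean of iron, selenite and zinc against WT cells. Against untreated LSKO cells it had 1.61 with selenite, 1.17 with manganese, 1.14 with iron and 0.87 with zinc, on the log2 scale. Of these the zinc call was lost without WT replicate 1 or WT replicate 2, and the call of selenite against iron and zinc, 0.60 (edgeR adjusted p = 0.032), was lost in DESeq2, with the length and GC correction and without either WT library, and that of untreated LSKO against WT cells without WT replicate 1. Serpina6, which encodes the corticosteroid carrier transcortin, had 3.06 with selenite, 4.45 with manganese, 1.15 with iron and 1.96 with zinc, 1.67 and 2.39 in untreated LSKO cells, and 1.77 and 1.44 in WT cells. Manganese was highest, with 1.12 (standard error 0.326, edgeR adjusted p = 0.0328) against untreated LSKO cells, a call lost in DESeq2 and without LSKO replicate 1.

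Serpina10 (chromosome 12, 103614786 to 103631444, minus strand) encodes the protein Z-dependent inhibitor of clotting factor X. It had 168 with selenite, 97.3 with manganese, 82.9 with iron and 147 with zinc, 73.96 and 103 in untreated LSKO cells, and 38.9 and 33.7 in WT cells. Selenite and zinc lay above the other libraries, and WT cells below them. The mean of iron, selenite and zinc against WT cells gave 1.80 (standard error 0.132, edgeR adjusted p = 2.4e-05), selenite against untreated LSKO cells 0.92 (edgeR adjusted p = 0.00258), and zinc 0.73 (edgeR adjusted p = 0.0232). The zinc call was lost in DESeq2 and without either WT library. Serpina12, which encodes the secreted protein vaspin, had 15.7 with selenite, 11.7 with manganese, 7.67 with iron and 8.97 with zinc, 7.62 and 9.93 in untreated LSKO cells, and 6.63 and 5.37 in WT cells. Selenite was highest, with 0.83 (edgeR adjusted p = 0.0152) against untreated LSKO cells (lost in DESeq2), and the mean of the 3 metals against WT cells gave 0.77 (standard error 0.17, edgeR adjusted p = 0.00821). Serpina11 stayed between 2.03 and 3.81 and was called in none of the comparisons. Its exons overlap those of Gm28577 on the same strand.

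**Figure D3:**
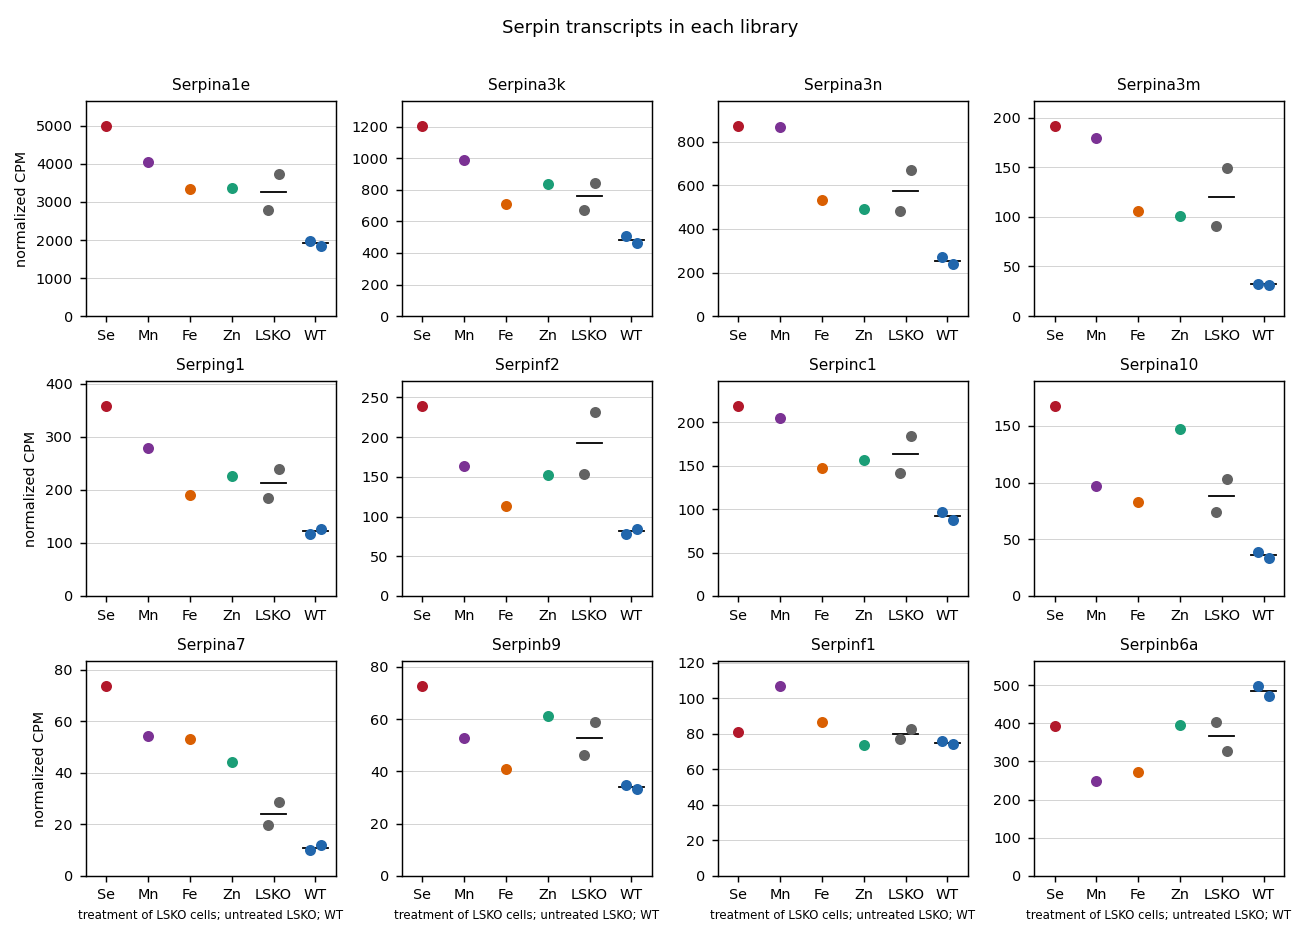
Normalized CPM of 12 Serpin genes in the 8 libraries, in panels with their own scale from 0: LSKO cells with selenite (Se), manganese (Mn), iron (Fe) or zinc (Zn), 1 point each, and untreated LSKO and WT cells, 2 points each with their mean as a bar. WT cells are lowest in 10 panels, while Serpinb6a is highest in WT cells and Serpinf1 lies between 73.7 and 107.

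The next members act on clotting, fibrinolysis and complement. Serpinc1 (chromosome 1, 160978585 to 161005863, plus strand) encodes antithrombin, which blocks thrombin and clotting factor X. It had 219 with selenite, 205 with manganese, 148 with iron and 157 with zinc, 142 and 185 in untreated LSKO cells, and 96.5 and 87.1 in WT cells. Each LSKO library was above both WT libraries, with 0.90 (standard error 0.108, edgeR adjusted p = 0.000283) for the mean of iron, selenite and zinc against WT cells and 0.83 (edgeR adjusted p = 0.000822) for untreated LSKO cells. Exons of Zbtb37 on the opposite strand cover 34.4% of its exon bases, and Zbtb37 itself had 10.9 to 16.0 normalized CPM. Serpinf2 (chromosome 11, 75431732 to 75439591, minus strand) encodes alpha-2-antiplasmin, the plasma inhibitor of plasmin. It had 239 with selenite, 164 with manganese, 114 with iron and 152 with zinc, 153 and 231 in untreated LSKO cells, and 78.2 and 84.5 in WT cells. Iron was the lowest of the LSKO libraries. Untreated LSKO cells, at 192 ± 55.1 (SD, n = 2), differed from WT cells, at 81.3 ± 4.42 (SD, n = 2), by 1.24 (standard error 0.153, edgeR adjusted p = 0.000359). Iron against untreated LSKO cells gave -0.76 (edgeR adjusted p = 0.0279), a call lost in DESeq2 and without WT replicate 1, WT replicate 2 or LSKO replicate 2.

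Serping1 (chromosome 2, 84765387 to 84775444, minus strand) encodes the inhibitor of the complement proteases C1r and C1s and of kallikrein. It had 359 with selenite, 279.5 with manganese, 191 with iron and 226 with zinc, 186 and 240.4 in untreated LSKO cells, and 118 and 126 in WT cells. The mean of the 3 metals exceeded WT cells by 1.03 (standard error 0.104, edgeR adjusted p = 0.000105), and selenite exceeded untreated LSKO cells by 0.75 (edgeR adjusted p = 0.00278). The selenite value lay above the other 7 libraries. Serpine2, which encodes protease nexin 1, stayed between 1.36 and 3.29 and was not called. Serpinf1, which encodes the secreted factor PEDF and inhibits no protease, had 73.7 to 107 normalized CPM. No comparison called Serpinf1, and its largest log2 fold change with an adjusted p under 0.05 was 0.42 (edgeR adjusted p = 0.00737), with manganese.

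Serpind1 (chromosome 16, 17331371 to 17343575, plus strand) encodes heparin cofactor II, a thrombin inhibitor. It had 71.7 with selenite, 37.2 with manganese, 16.8 with iron and 49.1 with zinc, 41.5 and 46.2 in untreated LSKO cells, and 36.8 and 34.6 in WT cells. Iron was the lowest library and selenite the highest, while manganese, zinc and the 4 untreated libraries lay between 34.6 and 49.1. Selenite against the mean of iron and zinc gave 1.32 (standard error 0.113, edgeR adjusted p = 0.000507), iron against untreated LSKO cells -1.38 (edgeR adjusted p = 0.000103) and selenite 0.71 (edgeR adjusted p = 0.0016). The iron call held in each alternative run, and the selenite call in each but the length and GC correction. Serpinh1 (chromosome 7, 99345376 to 99353239, minus strand) encodes HSP47, a chaperone that folds collagen in the endoplasmic reticulum and is no inhibitor. It had 10.3 with selenite, 9.70 with manganese, 3.59 with iron and 7.38 with zinc, 9.16 and 8.76 in untreated LSKO cells, and 12.1 and 12.04 in WT cells. Both WT libraries were above the other 6, and iron was lowest. The mean of the 3 metals differed from WT cells by -0.89 (standard error 0.134, edgeR adjusted p = 0.00107), and iron from untreated LSKO cells by -1.32 (edgeR adjusted p = 0.00299).

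The iron library was also lowest for the summed markers of 3 other liver cell types. Stellate cell and fibroblast markers (10 genes, none at 0 in all libraries) summed to 19.98 normalized CPM with iron, against 46.5 to 50.8 in untreated LSKO cells, and 4 of the 10 were called lower and 0 higher. Markers of sinusoidal endothelial cells (9 genes) summed to 101 with iron, against 161 to 203 in untreated LSKO cells, and 7 of the 9 were called lower. Cholangiocyte markers, of which 3 of 5 passed the filter, summed to 25.9 against 49.3 to 65.9. Of those 3, 2 were called lower. The other, Sox9, had 11.7 with iron against 12.2 and 10.3 in untreated LSKO cells. The part of these cell types in the values of Serpinh1, Serpina3g and the other members lower with iron was not tested.

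**Figure D4:**
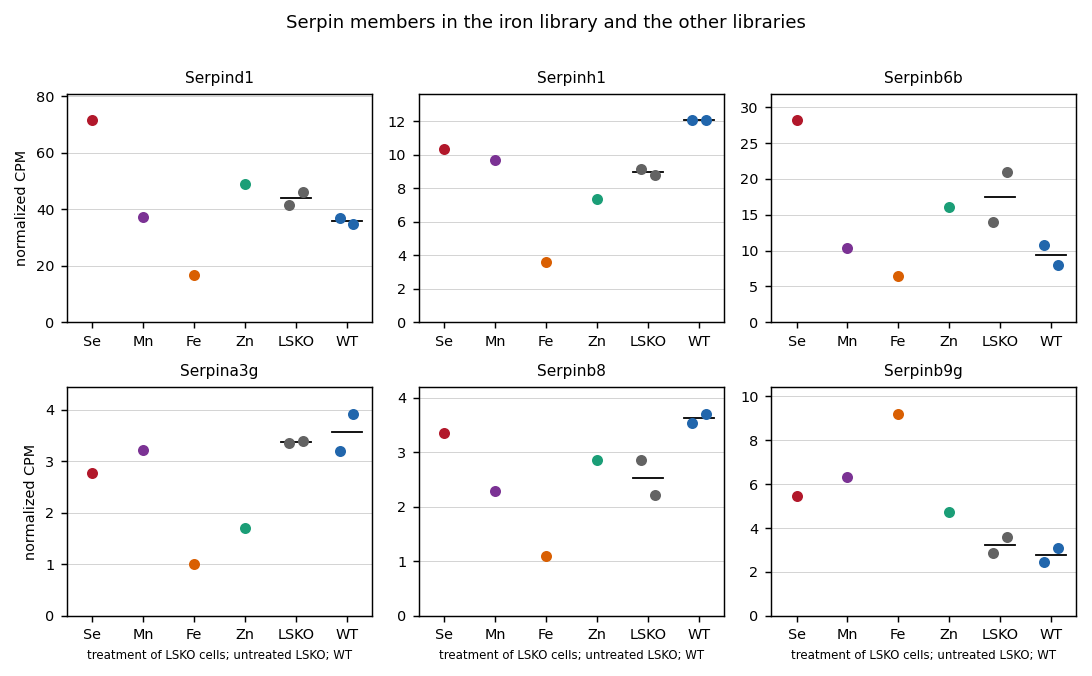
Normalized CPM of 6 Serpin genes in the 8 libraries, in panels with their own scale from 0, for LSKO cells with selenite, manganese, iron or zinc and for untreated LSKO and WT cells (2 points each, mean as a bar). Iron is the lowest point for Serpind1, Serpinh1, Serpinb6b, Serpina3g and Serpinb8, and the highest for Serpinb9g, at 9.22.

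Clade B serpins act inside cells. Serpinb6a (chromosome 13, 33917918 to 34002794, minus strand), which protects cells against leaked lysosomal and granule proteases, was the highest of them per kb of exon. It had 393 with selenite, 249 with manganese, 273 with iron and 396 with zinc, 403 and 328 in untreated LSKO cells, and 498 and 470.2 in WT cells. Both WT libraries were above the 6 LSKO libraries, a pattern opposite to that of most secreted members, and the fold threshold was not reached: the mean of iron, selenite and zinc against WT cells had -0.47 (standard error 0.0882, edgeR adjusted p = 0.00353). Manganese called Serpinb6a lower than untreated LSKO cells, -0.55 (edgeR adjusted p = 0.00762), a call lost without LSKO replicate 1. Exons of Ripk1, Nqo2 and 1110046J04Rik on the opposite strand cover 29.3% of its exon bases, and 1110046J04Rik had 21 reads with manganese against 806 to 1995 in the other libraries. Their part in the Serpinb6a value with manganese was not tested.

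Serpinb9 (chromosome 13, 33003250 to 33017957, plus strand), an inhibitor of granzyme B, had 72.7 with selenite, 52.6 with manganese, 41.0 with iron and 61.0 with zinc, 46.4 and 59.0 in untreated LSKO cells, and 34.6 and 33.4 in WT cells. WT cells were lowest, with 0.74 (standard error 0.105, edgeR adjusted p = 0.000791) for the mean of the 3 metals against WT cells. Serpinb6b had 28.3 with selenite, 10.3 with manganese, 6.43 with iron and 16.0 with zinc, 14.01 and 20.9 in untreated LSKO cells, and 10.7 and 8.03 in WT cells. Iron was lowest and selenite highest, with 1.48 (standard error 0.233, edgeR adjusted p = 0.00241) for selenite against the mean of iron and zinc and -1.45 (edgeR adjusted p = 0.00738) for iron against untreated LSKO cells. Serpinb8 had 3.36 with selenite, 2.29 with manganese, 1.10 with iron and 2.85 with zinc, 2.86 and 2.21 in untreated LSKO cells, and 3.54 and 3.71 in WT cells. Its smallest p was for iron against untreated LSKO cells, -1.20 (standard error 0.374, edgeR adjusted p = 0.0618), which is not a call, and it was called lower in the mean of the 3 metals than in WT cells, -0.72 (edgeR adjusted p = 0.0408).

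The Serpinb9 copies were low. Serpinb9g had 5.48 with selenite, 6.31 with manganese, 9.22 with iron and 4.73 with zinc, 2.86 and 3.61 in untreated LSKO cells, and 2.46 and 3.10 in WT cells. Iron was highest, with 1.5 (standard error 0.248, edgeR adjusted p = 0.00371) against untreated LSKO cells, and the 4 metal libraries lay above the untreated ones. Serpinb9f had 0.543 with selenite, 1.19 with manganese, 1.35 with iron and 0.693 with zinc, 0.925 and 0.478 in untreated LSKO cells, and 0.278 and 0.175 in WT cells, and 1.77 (standard error 0.54, edgeR adjusted p = 0.0345) for the mean of iron, selenite and zinc against WT cells. Serpinb9e had 0.346 with selenite, 0.72 with manganese, 0.748 with iron and 0.734 with zinc, 0.264 and 0.441 in untreated LSKO cells, and 0.208 and 0.0436 in WT cells, and 2.06 (standard error 0.669, edgeR adjusted p = 0.0434) for the same comparison, with 6 reads in WT replicate 1 and 1 read in WT replicate 2. Both of these calls were lost in DESeq2, with the length and GC correction and without WT replicate 2. Serpinb9b had 3.85 with selenite, 1.57 with manganese, 1.40 with iron and 5.14 with zinc, 2.11 and 2.87 in untreated LSKO cells, and 1.77 and 2.01 in WT cells, with its smallest p for zinc against untreated LSKO cells, 1.03 (standard error 0.296, edgeR adjusted p = 0.0806). Serpinb9c had 0.692 with selenite, 1.48 with manganese, 1.10 with iron and 1.43 with zinc, 0.881 and 0.993 in untreated LSKO cells, and 0.625 and 0.655 in WT cells, with its smallest p for the mean of the 3 metals against WT cells, 0.68 (standard error 0.376, edgeR adjusted p = 0.204). No comparison called either of these genes.

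The other 28 members were below the filter. No read was assigned to 10 of them in any library, and 18 had 1 to 79 reads in all, with no single count above 17. They comprised 17 members of clade B, 8 of clade A, Serpine3, and both clade I genes, Serpini1 (neuroserpin) and Serpini2. Serpina1f, whose coding sequence was 53.5% to 54.3% identical to the other Serpina1 genes, had no reads. A count of 0 allows up to 3 counts per library, so the 10 members with no read were not detectable at this depth.

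Genes that work with serpins were read from lists that hold no member. Of 24 proteases that serpins inhibit, 21 were tested, and 10 were higher and 1 lower in untreated LSKO than in WT cells, with a median log2 fold change of 0.58. They included F10 (clotting factor X, 1.79), Masp1 (1.08) and plasminogen, Plg (0.82), and the lower one was the urokinase gene Plau (-1.32), named after its value was seen. With selenite 3 were higher and 1 lower, the last being Furin, a processing protease, at -0.96. Beside these stand 7.89% higher and 9.67% lower of all genes with selenite. For untreated LSKO against WT cells the shares of all genes were 6.74% and 3.7%. Haptoglobin, Hp, a protease relative without activity that stands in this list, had 1.18 with selenite. Of 18 tested protease inhibitors of other families, 7 were higher and 0 lower in untreated LSKO than in WT cells, with a median of 0.44, among them Pzp (1.02) and Ahsg (0.82). At an unadjusted p under 0.05, edgeR put 12 of the 18 higher and 1 lower, and DESeq2 was not run on the lists.

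Of 21 regulators of liver serpin genes, 4 were higher and 0 lower in untreated LSKO than in WT cells, with Nr1h4 at 0.63, Cebpd at 0.86, Hnf4a at 0.63 and Foxa3 at 0.60 on the log2 scale. At an unadjusted p under 0.05, edgeR put 5 higher and 3 lower. With selenite 1 was higher and 4 were lower, among them Cebpb at -1.10, Smad4 at -0.59 and Smad3 at -0.53. The higher one was Cebpd, at 0.54. Cebpb encodes an acute phase factor. Of 14 genes for folding and disposal of secretory proteins in the endoplasmic reticulum, selenite called Syvn1 lower (-0.64) and manganese called Hsp90b1 lower (-0.62). Iron called Hspa5, the chaperone BiP, higher (0.57). Of all genes 6.74% were called higher and 3.7% lower in untreated LSKO than in WT cells. The shares were 7.89% and 9.67% with selenite, 2.09% and 15.1% with manganese, and 3.8% and 4.89% with iron. Single calls in lists this short are not read as a result about the list. Between untreated LSKO and WT cells edgeR called 0 of the 14, and 0 had an unadjusted p under 0.05. Collagens and collagen-modifying enzymes, the clients and partners of Serpinh1, numbered 16, and iron called 3 lower and 0 higher: Col3a1 (-2.22), Col5a2 (-1.59) and Col5a1 (-2.95). Of 12 tested cofactors and clearance receptors of serpins, untreated LSKO cells had 2 higher than WT cells, the asialoglycoprotein receptor genes Asgr1 (1.79) and Asgr2 (1.06), and selenite called Lrp1 (-1.24) and Hspg2 (-2.23) lower than untreated LSKO cells and Asgr1 (0.82) and Asgr2 (0.62) higher.

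Summed hepatocyte markers were highest with selenite and lowest in WT cells, like the summed Serpina1 copies. The 10 hepatocyte markers, all detected, summed to 52726 normalized CPM with selenite, 44456 with manganese, 32105 with iron and 38941 with zinc, 30989 and 39060.0 in untreated LSKO cells, and 22663 and 21720.3 in WT cells. Most of it was Alb, with 43296 of the 52726 with selenite. The transferrin gene Trf was lower in untreated LSKO than in WT cells, without a call in that comparison. It had 86.5 with selenite, its highest library, 83.5 with manganese, 71.2 with iron and 49.7 with zinc. Its levels were 67.6 and 66.0 in untreated LSKO cells and 82.9 and 81.4 in WT cells. With selenite against untreated LSKO cells 5 of 10 markers were higher, with a median of 0.56. With iron 0 of 10 were higher and 1 was lower, with a median of -0.31. Endothelial markers were highest in WT cells, with 101 to 183 in the metal libraries, 161 and 203 in untreated LSKO cells, and 246 and 257 in WT cells. Kupffer cell and macrophage markers summed to 338 with selenite, 490 with manganese, 328 with iron and 300.5 with zinc, 258 and 288 in untreated LSKO cells, and 223 and 201 in WT cells. Most of that sum was Cd68, with 263 of the 328 with iron. With iron 0 of 8 tested Kupffer markers were higher than in untreated LSKO cells and 2 were lower, with a median log2 fold change of -0.11. Of the neutrophil markers Elane and Cxcr2 were at 0, and the sum was at most 2.47. The neutrophil marker S100a8, the one tested, had 2.27 with selenite, 0.847 with manganese, 0 with iron and 1.26 with zinc, 0 and 0.0368 in untreated LSKO cells, and 0.0694 and 0 in WT cells, and edgeR called it higher with selenite, manganese and zinc. Of the lymphocyte markers Cd3d, Nkg7, Gzma and Gzmb were at 0, and mesothelial markers summed to under 0.3. The part of cell makeup in the serpin values was not tested.

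**Figure D5:**
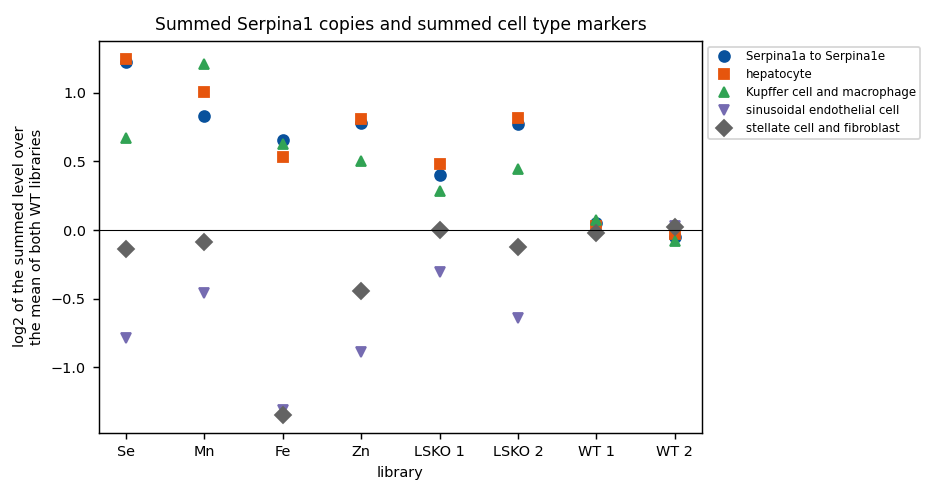
Log2 of summed normalized CPM over the mean of both WT libraries, by library, for the 5 Serpina1 copies and for the markers of 4 liver cell types. The Serpina1 and hepatocyte points lie above the line in each LSKO library and highest with selenite. The endothelial points lie below it, lowest with iron. Most of the hepatocyte sum is Alb.

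Of all 33 tested members 17 were highest with selenite, 6 with manganese and 4 with iron, and 20 were lowest in a WT library and 8 with iron. Over all genes tested 25% were highest with selenite and 22.8% lowest in a WT library. Of the 18 members with a mean of at least 30 normalized CPM, 14 were highest with selenite, 3 with manganese and 1 in a WT library, and 14 were lowest in a WT library. Of 5908 genes at such a level 33.9% were highest with selenite and 23.8% lowest in a WT library. LSKO replicate 2 was above LSKO replicate 1 in 17 of the 18 members, beside 49.8% of those genes. Reads of all 61 members made up 1.16% of the reads in genes with selenite, 1.07% with manganese, 0.877% with iron and 0.935% with zinc, 0.803% and 1.00% in untreated LSKO cells, and 0.622% and 0.591% in WT cells.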

How the data were processed

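Count tables of 8 libraries, 1 per sample, were used. According to the study's methods and the submitters' processing notes, the authors trimmed reads with Trimmomatic, aligned them to GRCm38 with HISAT2 and counted them per gene with HTSeq, and DESeq2 is also named there (for the strand setting: not given in the sources used here). The authors deposited unnormalized counts for each gene, and these entered all fits. The HTSeq summary lines (reads in no gene, 4.48% to 45.6% per library) were kept out of library sizes and tests. Groups were taken from the sample labels.

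Genes with at least 80 counts summed over the libraries (15468) were scaled by TMM (factors 0.867 to 1.06). They were fitted in 1 model of 6 groups with edgeR 4.0.16 in R 4.3.3 (quasi-likelihood F-test). A prior count of 2 entered only the log2 CPM used for the length and GC offsets and for comparing same-numbered libraries. The fit left 2 residual degrees of freedom, plus 8.53 from the prior, and a biological coefficient of variation of 8.29%. P-values were two-sided and adjusted by Benjamini-Hochberg over all genes tested. The pairs differed by more than counting noise (chi-square per degree of freedom 13.3 for LSKO and 5.98 for WT cells), so each library was kept as 1 sample. Intervals cover counting error only, since reads without molecular identifiers are not independent molecules. The fit was run on simulated counts with changes set in the selenite library, for a small part of the genes. All groups were otherwise drawn from the same means, with the spread that the fit gave. In the data the comparison called 17.6% of all genes, and the spread of metal libraries is not known. The rates therefore hold for the simulated setting only. There, selenite against untreated LSKO cells called 53.7% of 1.5-fold, 59.7% of 2-fold and 86.4% of 4-fold changes, and 0.0851% of unchanged genes. A member that is not called may therefore still differ.

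The members and the gene lists were chosen with earlier results of these data known. Full statistics were given for each called member in its comparison with the smallest p, and up to 4 called genes with the smallest p were named per list and comparison. Alternatives were DESeq2 1.42.0, median-ratio size factors, no filter, filterByExpr, other fold thresholds, leaving out each replicate or the manganese library, spline offsets for length and GC content (4 degrees of freedom), and a replicate block. Sequences come from GENCODE M21 transcripts (GRCm38). Some items are not reported here by name, although the counts include them.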

Additional observations from a re-analysis of the deposited data

How the results depend on the processing

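No member changed direction with a call under any alternative run. Counts of members called, by comparison, were as follows, without the share of all genes called in the same run. A shift in them may thus hold for all genes alike. Selenite against untreated LSKO cells called 13, against 7 in DESeq2, 1 beyond a log2 fold change of 1, and 8 to 18 with a replicate left out. Manganese called 8, against 5 in DESeq2, 4 beyond 1, and 5 to 14 with a replicate left out. Iron called 8, against 5 in DESeq2 and 6 to 10 with a replicate left out. Zinc called 2, against 1 in DESeq2, 0 beyond 1, and 0 to 6 with a replicate left out. Untreated LSKO against WT cells gave 14, against 6 beyond 1 and 7 to 17 with a replicate left out. The mean of iron, selenite and zinc against WT cells gave 23, against 11 beyond 1 and 16 to 23 with a replicate left out. Selenite against the mean of iron and zinc gave 20, against 10 in DESeq2, 11 with the length and GC correction, 5 beyond 1, and 11 to 18 with a replicate left out. The cause of these shifts was not tested, other than that a higher fold threshold can only lower a count. Leaving out the manganese library changed no call in the other comparisons.

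Same-numbered LSKO and WT libraries did not deviate together (correlation of deviations -0.12 over 10882 genes), so the numbers are not a pairing. With the replicate block the counts, in the order above, were 14, 10, 9, 3, 15, 23 and 20. With the crossed block, an alternative chosen after seeing the data, they were 13, 10, 9, 2, 15, 23 and 21. With 1 library per metal and 2 per pair, depth and replication limit the low members: Serpinb9e, Serpinb9f and Serpina3f rest on single-digit counts in some libraries.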
